A study of Mus musculus with 36 samples.

Results

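The costimulatory receptor genes described here are the TNF receptor family members Tnfrsf4 (OX40), Tnfrsf8 (CD30), Tnfrsf9 (CD137), Tnfrsf18 (GITR) and Cd27, and the CD28 family members Cd28 and Icos. They were chosen by name, as probe sets annotated with exactly 1 gene symbol equal to a member, and the 7 genes, with 1 probe set each, were followed among 22180 genes on the array. The study measured mouse CD4 T cells from TRIM28 KO mice and from littermate wild-type (WT) mice by Affymetrix microarray, and the values are log2 intensities. Cells sorted as naive were either left naive or cultured for 72 h on plate-bound antibody to CD3 with soluble antibody to CD28, in Th0 (no lineage named), Th1, Th2, Th17 or Treg conditions. With 2 genotypes in 6 conditions there were 12 groups of 3 samples, 36 in all. All stimulated groups of both genotypes therefore received an antibody to the product of one member, Cd28. The cytokines of each condition, the Cre line or promoter behind the deletion and the ages of the mice were not given in the sources used here. Whether the 3 replicates of a group are different mice is not stated. Each naive group held samples with high and with low Xist, so neither came from 1 mouse alone. The p-values here reflect only the spread among the replicates, which in the stimulated groups may be technical.

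T cells need a signal from a costimulatory receptor beside the antigen receptor for full activation. CD28 is present on naive T cells, binds CD80 and CD86 on antigen-presenting cells and signals through PI3 kinase and PKC theta, whereas its relative ICOS appears after activation and binds ICOSL. OX40, CD30, CD137 and GITR are induced on activated T cells, CD27 is already present on naive ones, and all of them recruit TRAF adaptors that lead to NF-kappaB activation and to survival and expansion of the cell. TRIM28 is a corepressor that silences chromatin through KRAB zinc-finger proteins.

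Promoter sequences are shown for the members with the widest range between conditions and for Cd27, the member with the most frequent KO difference. RefSeq windows of 300 bases (250 before and 50 after the annotated start, build GRCm38.p6) were found for 5 of the 7 members, 6 windows in all since Tnfrsf9 has 2, and Cd28 and Icos had no entry. Capitals mark matches, on either strand, to an NF-kappaB motif (GGGANNNNCC), an AP-1 motif (TGANTCA), a STAT motif (TTCNNNGAA), a STAT6 motif (TTCNNNNGAA) or a GATA motif (AGATAA). The Tnfrsf8 window is chr4:145315115-145315414 on the minus strand, the Tnfrsf9 window shown is chr4:150927749-150928048 on the plus strand and the Cd27 window is chr6:125236978-125237277 on the minus strand.
Tnfrsf8: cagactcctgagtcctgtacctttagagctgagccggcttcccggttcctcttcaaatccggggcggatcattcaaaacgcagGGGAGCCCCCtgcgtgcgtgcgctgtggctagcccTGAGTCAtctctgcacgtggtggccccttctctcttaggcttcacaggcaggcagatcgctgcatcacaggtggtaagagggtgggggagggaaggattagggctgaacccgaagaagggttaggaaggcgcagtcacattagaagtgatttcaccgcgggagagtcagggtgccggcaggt
Tnfrsf9: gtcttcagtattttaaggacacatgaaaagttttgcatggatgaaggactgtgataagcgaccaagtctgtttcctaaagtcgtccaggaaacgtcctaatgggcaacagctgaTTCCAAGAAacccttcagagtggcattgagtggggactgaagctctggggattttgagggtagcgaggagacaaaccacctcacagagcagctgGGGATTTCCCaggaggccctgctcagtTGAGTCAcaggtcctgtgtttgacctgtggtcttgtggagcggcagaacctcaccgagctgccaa
Cd27: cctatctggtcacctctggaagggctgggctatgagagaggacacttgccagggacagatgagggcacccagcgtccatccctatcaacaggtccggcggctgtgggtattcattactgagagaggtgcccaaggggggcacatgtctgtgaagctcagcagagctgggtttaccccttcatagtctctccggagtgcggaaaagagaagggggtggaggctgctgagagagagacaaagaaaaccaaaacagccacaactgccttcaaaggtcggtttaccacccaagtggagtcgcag
In Tnfrsf8 the capitals are an NF-kappaB match, GGGAGCCCCC, at positions -167 to -158 from the start and an AP-1 match, TGAGTCA, at -132 to -126. In Tnfrsf9 they are a STAT match, TTCCAAGAA, at -136 to -128, an NF-kappaB match, GGGATTTCCC, at -42 to -33, and the AP-1 letters TGAGTCA again, at -15 to -9. The Cd27 window held no match, nor did the windows of Tnfrsf4 and the other Tnfrsf9 start, and Tnfrsf18 held 1 STAT match. No 2 matches overlapped. Of 32851 such mouse windows, 20.7% held the NF-kappaB letters, 7.81% the AP-1 letters, 8.3% the STAT letters, 6.95% the STAT6 letters and 11.2% the GATA letters, so these matches are a description of the letters and not of binding.

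Replicates correlated with a mean r of 0.980 to 0.992 over the tested genes, and Trim28 checked the genotype labels: its values were 9.21 to 9.99 in WT cells, 7.20 to 7.86 in KO naive cells and 5.51 to 6.58 in stimulated KO cells. All 7 members were among the 13082 genes tested, those above a log2 value of 5.26 in at least 3 samples (Tnfrsf8 in 28 samples, the other members in all 36). T cell markers averaged 10.63 to 11.37 in every sample, B cell markers 4.29 to 4.65 and NK markers 3.58 to 4.39. The 2 CD8 T cell markers averaged 5.63 to 7.13, with Cd8b1 at 6.18 to 8.84. The myeloid and dendritic list (3 of 8 genes tested) averaged 5.02 to 5.46 in the Th2 samples and 4.35 to 4.89 in the others. Over all samples its tested genes reached 10.32 (Adgre1), 7.87 (Itgam) and 6.52 (Fcgr3), and the rest stayed at or below 5.20. A list of 5 proliferation genes was at 7.03 to 9.36 in KO Th0 and 7.53 to 9.74 in KO Th1 samples against 10.50 to 10.64 in their WT counterparts. Replicate 1 of KO Th0 and replicate 1 of KO Th1 stood apart at the low end of these ranges, so results of the members that rest on them are given with and without them. Results of the ligands and other gene lists in KO Th0 and KO Th1 cells are given only with them. Because the samples were bulk RNA, fewer cells with a transcript and less of it per cell cannot be told apart.

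**Figure D1:**
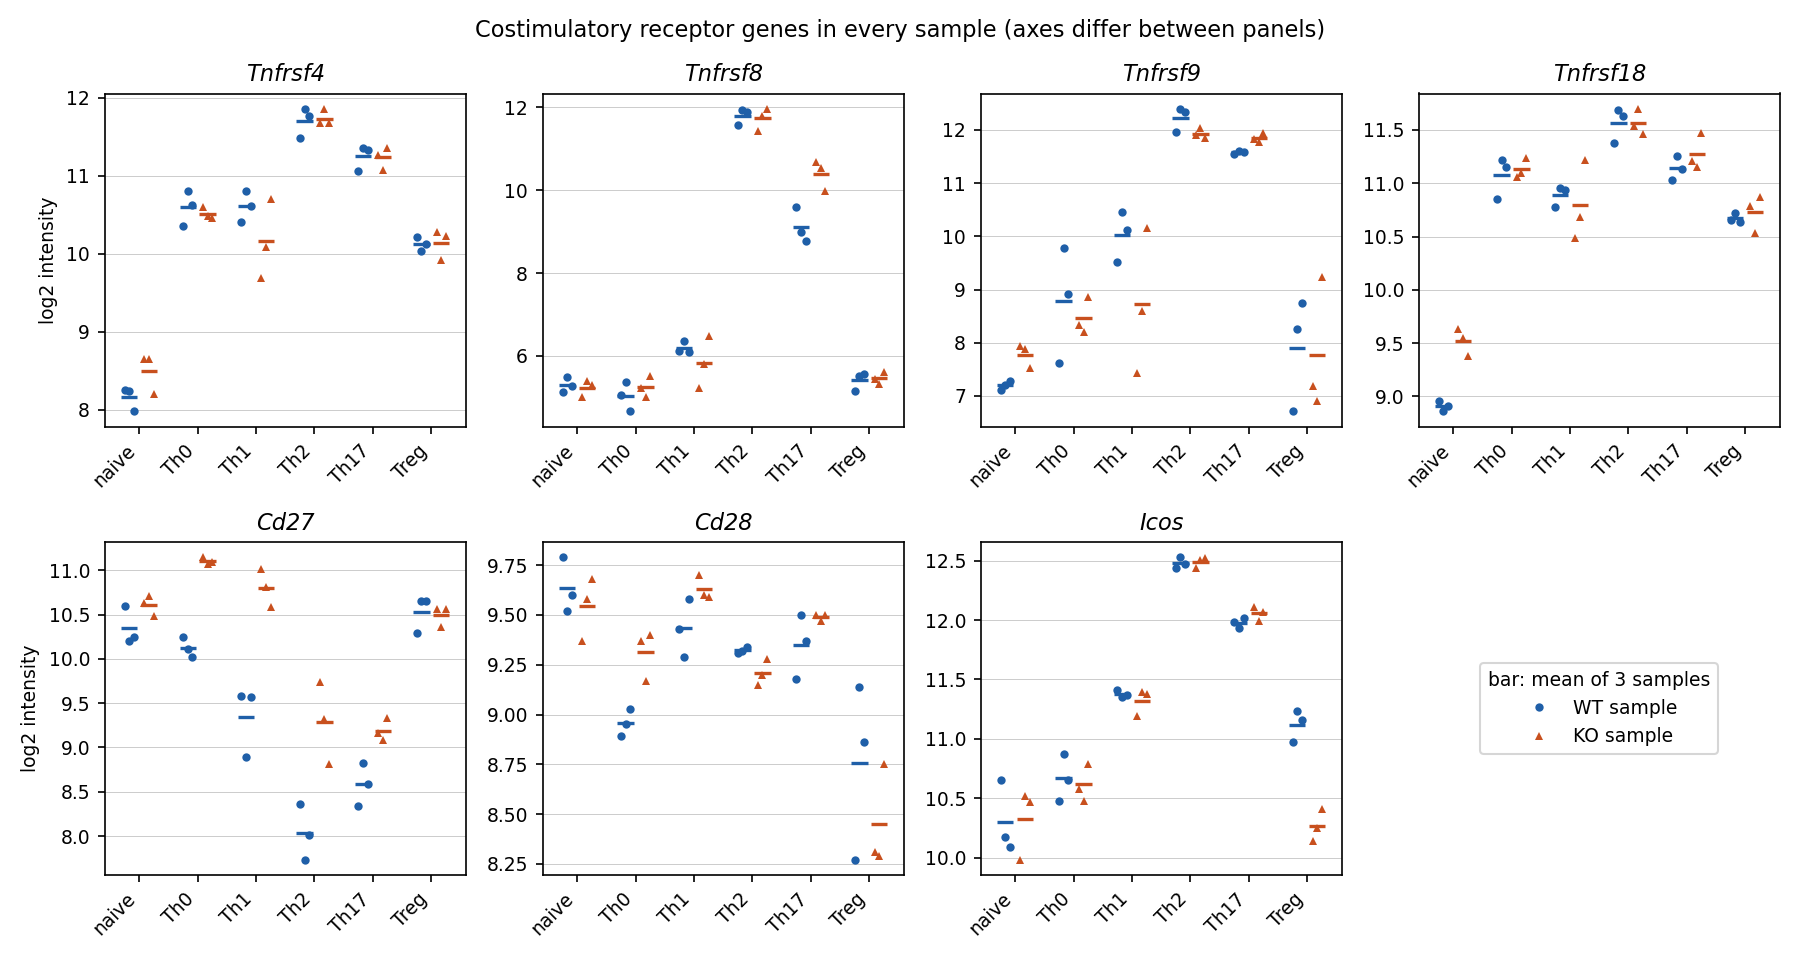
Log2 intensity (vertical axis, a separate scale in each panel) of the 7 costimulatory receptor genes in the 6 conditions, with each WT sample as a blue circle, each KO sample as an orange triangle and a bar at the mean of 3 samples. Tnfrsf8 lies between 11.44 and 11.97 in all Th2 samples and between 4.66 and 5.51 in all Th0 samples, and Cd27 is higher in the KO than in the WT samples of Th0, Th1, Th2 and Th17 cells.

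Stimulation without a named lineage raised OX40, GITR and CD137 transcripts in WT cells and lowered Cd28. Of the 7 members, 5 passed the test between WT Th0 and naive cells (limma, adjusted p under 0.05, as for every call here), 4 higher and 1 lower, where 53.6% of all tested genes passed. The median difference was 0.36 log2 units over the members and 0.04 over all tested genes. In KO cells 3 of the 7 passed, all higher, where 40.8% of all tested genes passed.

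Tnfrsf4, whose product sustains the survival of recently activated T cells, read 8.26, 8.24 and 7.98 in WT naive samples and 10.36, 10.81 and 10.62 in WT Th0 samples. In KO cells the values were 8.65, 8.65 and 8.20 before and 10.60, 10.48 and 10.46 after stimulation. The groups did not overlap in either genotype, with rises of 5.41-fold (log2 2.44, SE 0.17, adjusted p = 4.6e-12) and 4.05-fold (log2 2.02, SE 0.17, adjusted p = 4.2e-10). Tnfrsf18, which encodes the receptor for GITR ligand, lies beside Tnfrsf4 on chromosome 4 with no other array gene between them in GRCm38.p6. It went from 8.96, 8.86 and 8.91 to 10.85, 11.22 and 11.15 in WT cells, 4.49-fold (log2 2.17, SE 0.13, adjusted p = 2.9e-13), and rose 3.07-fold in KO cells (log2 1.62, SE 0.13, adjusted p = 2.1e-10). These 2 genes moved closely together: their 12 group means correlated with r = 0.97 and their deviations from the group means over the 36 samples with r = 0.87. Both correlations are descriptions over samples that share arrays and scaling, and for comparison the 12 group means of Tnfrsf4 and its neighbour on the other side, Sdf4, gave r = 0.83.

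Tnfrsf9, the receptor for CD137 ligand, varied more between samples than any other member (SE 0.55 for a difference between groups). WT naive samples read 7.12, 7.21 and 7.28 and WT Th0 samples 7.62, 9.79 and 8.92. Every Th0 sample was above every naive sample, 2.98-fold on average (log2 1.58, adjusted p = 0.017), but without WT Th0 replicate 2 the difference was 1.07 and not called (adjusted p = 0.14). In KO cells the samples read 7.93, 7.88 and 7.52 before and 8.34, 8.21 and 8.86 after stimulation, a difference of 0.69 (95% interval -0.44 to 1.82) that did not pass. Tnfrsf8 did not differ detectably between Th0 and naive cells in either genotype, with all 12 samples between 4.66 and 5.51.

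Cd28 was at 9.79, 9.52 and 9.60 in WT naive samples and at 8.89, 8.95 and 9.03 in WT Th0 samples, a 1.59-fold fall with no overlap (log2 -0.67, SE 0.14, adjusted p = 0.00023). Its difference in KO cells was -0.22 and did not pass (adjusted p = 0.22). Icos rose 1.29-fold in WT cells (log2 0.36, SE 0.13, adjusted p = 0.019), from 10.65, 10.17 and 10.09 to 10.48, 10.87 and 10.65, with overlapping groups. The Icos call was lost without WT naive replicate 2 (0.30, adjusted p = 0.091), WT naive replicate 3 (0.26, adjusted p = 0.13) or WT Th0 replicate 2 (0.26, adjusted p = 0.13). Cd27 did not pass in WT cells (-0.22) and rose 1.41-fold in KO cells (log2 0.49, SE 0.19, adjusted p = 0.040), a call that ended without any 1 of KO Th0 replicates 1, 2 and 3 or KO naive replicates 1 and 3 (adjusted p from 0.070 to 0.13).

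Among the stimulated conditions, Th2 and Th17 cells had the highest Tnfrsf4, Tnfrsf8, Tnfrsf9 and Icos and the lowest Cd27 in both genotypes. Against WT Th0 cells, all 7 members passed in Th2 (6 higher, 1 lower), 6 in Th17 (5 higher, 1 lower), 4 in Th1 (3 higher, 1 lower) and 3 in Treg (1 higher, 2 lower). The shares of all tested genes that passed were 40.1% in Th2, 39.1% in Th17, 10.8% in Th1 and 41.6% in Treg, so the Treg count of 3 of 7 is near the background. In KO cells 6 members passed in Th2, 5 in Th17, 1 in Th1 and 3 in Treg, beside 43.3%, 51.6%, 8.49% and 19.6% of all tested genes. The median member difference was 1.10 in WT Th2 cells and 1.22 in KO Th2 cells, beside -0.06 and -0.04 over all tested genes.

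**Figure D2:**
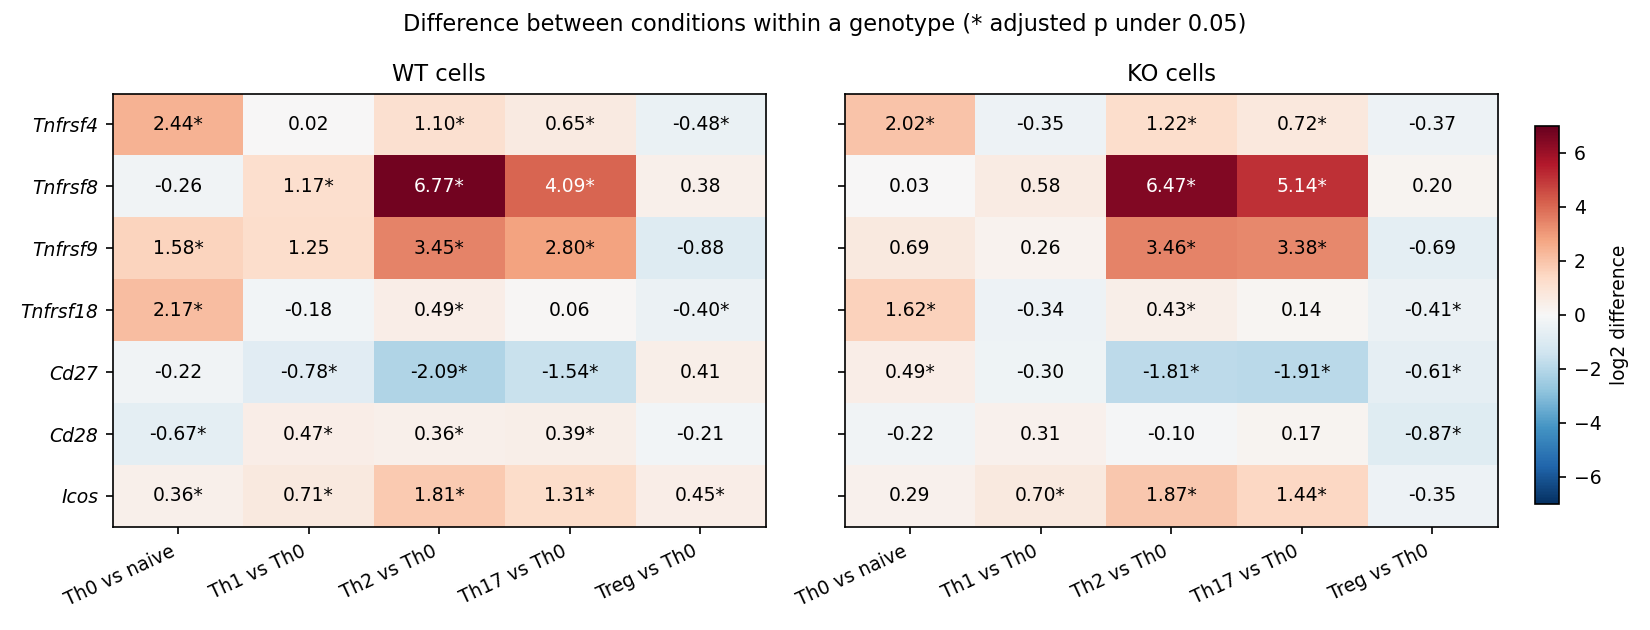
Log2 differences between conditions for the 7 genes (rows) in WT cells (left) and KO cells (right), with the value printed in each cell, red for higher and blue for lower, and a star at an adjusted p under 0.05. The Th2 and Th17 columns are red for Tnfrsf8, Tnfrsf9, Tnfrsf4 and Icos and blue for Cd27 in both genotypes, with the highest value, 6.77, for Tnfrsf8 in WT Th2 cells.

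Tnfrsf8 encodes CD30, a receptor long used as a marker of Th2 clones, and was the member with the widest range. WT Th2 samples read 11.57, 11.94 and 11.89, WT Th17 samples 9.60, 8.98 and 8.78, WT Th1 samples 6.13, 6.36 and 6.10 and WT Treg samples 5.16, 5.52 and 5.57. Th0 samples read 5.06, 5.38 and 4.66 and naive samples 5.12, 5.48 and 5.28, so Th2, Th17 and Th1 cells each lay wholly above them. Relative to Th0, Tnfrsf8 was 109-fold higher in Th2 (log2 6.77, SE 0.24, adjusted p = 8.6e-19), 17-fold higher in Th17 (log2 4.09, adjusted p = 7.1e-14) and 2.24-fold higher in Th1 cells (log2 1.17, adjusted p = 0.0012). In the WT order Th2 > Th17 > Th1 > Treg, naive and Th0, each of the first 3 steps passed (2.68, 2.92 and 0.78, the last at adjusted p = 0.0080) and the last 3 conditions did not differ detectably. KO Th2 samples, at 11.44, 11.79 and 11.97, lay among the WT ones. The lower conditions were close to the filter value of 5.26, where an array gives little resolution, so the folds against them are rough.

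Tnfrsf9 was also highest in Th2 cells, at 11.96, 12.40 and 12.33, and in Th17 cells, at 11.54, 11.60 and 11.59. It was 10.9-fold higher in WT Th2 (log2 3.45, adjusted p = 1.1e-05) and 6.96-fold higher in WT Th17 than in Th0 cells (log2 2.80, adjusted p = 0.00015), and the KO differences were 3.46 and 3.38. Th2 and Th17 cells did not differ detectably from each other (0.65, adjusted p = 0.41). Treg samples were uneven, at 6.71, 8.26 and 8.74 in WT and 7.18, 6.90 and 9.24 in KO cells, and below Th1, where WT samples read 9.51, 10.46 and 10.11, no step between neighbouring conditions passed. The WT Th1 samples exceeded Th0 by 1.25 (adjusted p = 0.17), which passed with the replicate block in a fit to these groups (adjusted p = 0.015). The group means of Tnfrsf8 and Tnfrsf9 correlated with r = 0.94 over the 12 groups, given as a description.

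Tnfrsf4 was highest in Th2 cells, at 11.48, 11.85 and 11.76 in WT, followed by Th17 cells at 11.06, 11.35 and 11.33. The differences from WT Th0 were 2.14-fold (log2 1.10, adjusted p = 9.3e-06) and 1.57-fold (log2 0.65, adjusted p = 0.0035), and those in KO cells were 1.22 and 0.72. In Treg cells, at 10.21, 10.03 and 10.12, Tnfrsf4 was lower than in WT Th0 cells (log2 -0.48, adjusted p = 0.029), a call lost without WT Th0 replicate 2 or 3 or WT Treg replicate 2 or 3 (adjusted p from 0.063 to 0.14). Tnfrsf18 had a flatter profile among stimulated cells, with all stimulated samples between 10.49 and 11.70. It was higher in WT Th2 than in Th0 cells by 0.49 (adjusted p = 0.0045) and lower in Treg cells by log2 -0.40 (adjusted p = 0.017), the latter not called without WT Th0 replicate 2 or 3 or WT Treg replicate 3 (adjusted p from 0.051 to 0.090). GITR and OX40 are known as surface markers of regulatory T cells. Neither transcript was higher in the Treg condition than in Th0 cells of either genotype. Against WT naive cells both were higher in WT Treg cells, Tnfrsf4 by 1.96 (adjusted p = 3.1e-10) and Tnfrsf18 by 1.76 (adjusted p = 1.4e-11). The Treg markers Foxp3 and Ikzf2 averaged 9.24 to 10.03 in WT Th0, 10.81 to 11.32 in WT Treg and 6.45 to 7.38 in WT naive samples.

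Cd27 ran the other way. Its product binds CD70 and is typical of naive and central memory T cells. WT samples read 10.60, 10.20 and 10.25 in naive, 10.25, 10.11 and 10.02 in Th0, 9.58, 8.89 and 9.57 in Th1, 8.34, 8.82 and 8.59 in Th17, 8.36, 7.73 and 8.01 in Th2 and 10.29, 10.66 and 10.65 in Treg cells. Neighbouring steps among Treg, naive and Th0 cells did not pass, and each further step down to Th1 (0.78), Th17 (0.77) and Th2 (0.55) passed. Against WT Th0 cells Cd27 was 4.27-fold lower in Th2 (log2 -2.09, SE 0.19, adjusted p = 7.4e-10), 2.92-fold lower in Th17 (log2 -1.54, adjusted p = 1.6e-07) and 1.72-fold lower in Th1 cells (log2 -0.78, adjusted p = 0.0064). Treg samples were higher than Th0 by 0.41 (adjusted p = 0.089), which was called in a fit to the groups compared (adjusted p = 0.035) and without WT Treg replicate 1 (0.53, adjusted p = 0.046). The Th1 difference was -0.55 and not called without WT Th1 replicate 2 (adjusted p = 0.090). Over the 12 group means Cd27 correlated with Tnfrsf9 at r = -0.88, with Tnfrsf8 at r = -0.84 and with Icos at r = -0.82, a description of groups that share the same arrays.

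Icos rose in every lineage condition relative to WT Th0 cells, to 12.44, 12.53 and 12.47 in Th2, 11.98, 11.93 and 12.02 in Th17, 11.41, 11.35 and 11.37 in Th1 and 10.97, 11.23 and 11.16 in Treg cells. No sample of these groups overlapped with Th0. The rises were 3.51-fold (log2 1.81, SE 0.13, adjusted p = 4.0e-12), 2.48-fold (log2 1.31, adjusted p = 2.2e-09), 1.64-fold (log2 0.71, adjusted p = 0.00026) and 1.37-fold (log2 0.45, adjusted p = 0.0058). In KO cells Icos was also called higher in Th2, Th17 and Th1 than in Th0 cells, but its Treg mean, 10.27, lay below the Th0 mean, 10.62. That difference did not pass and was called under 4 of 16 alternatives (adjusted p from 0.036 to 0.043). Cd28 moved little, with all 36 samples between 8.27 and 9.79. It was higher than in WT Th0 cells by 0.47 in Th1, 0.36 in Th2 and 0.39 in Th17 cells (adjusted p = 0.029, 0.045 and 0.032), but leaving out 1 sample ended each of these calls. The Cd28 call ended in Th1 without WT Th0 replicate 1 or 2 or WT Th1 replicate 1 or 3 (adjusted p from 0.070 to 0.15), in Th17 without WT Th0 replicate 1 or 2 or WT Th17 replicate 2 or 3 (0.070 to 0.14), and in Th2 without any of the 6 samples (0.058 to 0.12). In KO cells Cd28 was lower in Treg, at 8.31, 8.29 and 8.75, than in Th0 samples, at 9.37, 9.17 and 9.40 (1.82-fold, log2 -0.87, SE 0.14, adjusted p = 4.0e-05). Cd27 and Tnfrsf18 also passed as lower in KO Treg than in KO Th0 cells, by log2 -0.61 (adjusted p = 0.024) and -0.41 (adjusted p = 0.032), and Tnfrsf18 was not called in a fit to these groups alone, without (adjusted p = 0.074) or with the replicate block (adjusted p = 0.070). Cd27 lost that call without KO Th0 replicate 1 or 3 or KO Treg replicate 2 (adjusted p from 0.054 to 0.099), and Tnfrsf18 without KO Th0 replicate 2 or 3 or KO Treg replicate 1 or 2 (0.052 to 0.19).

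Steps between neighbouring conditions in these orders used further pairs, in which many genes differed. In WT cells the share of all tested genes that passed was 58.2% for Th1 against naive, 43.8% for Treg against naive, 32.0% for Th17 against Th1, 51.1% for Treg against Th1 and 31.3% for Th17 against Th2. In KO cells it was 44.1% for Th1 against naive, 63.3% for Th17 against naive, 44.7% for Treg against naive, 46.6% for Th17 against Th1, 28.7% for Treg against Th1, 38.1% for Th17 against Th2 and 47.9% for Treg against Th2. In KO cells Cd27 did not differ detectably between Th2 and Th17 cells (0.10, adjusted p = 0.73), nor did Icos between naive and Treg cells, the lowest 2 groups (0.06, adjusted p = 0.75). Between Th1 and Th0 cells of KO mice Icos passed (log2 0.70, SE 0.13, adjusted p = 0.00061), and Tnfrsf8 (0.58), Cd28 (0.31) and Cd27 (-0.30) did not. Tnfrsf8 passed there without KO Th1 replicate 1, and Tnfrsf4 and Tnfrsf18 passed as lower without KO Th1 replicate 3, so the count ranged from 1 to 3.

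Between KO and WT cells Cd27 was the member that differed in the most conditions, and each other member differed in 1 condition or in none. Between KO and WT samples, 1 of the 7 members passed in naive, Th0, Th2 and Treg cells each, and 2 passed in Th1 and in Th17 cells. The shares of all tested genes that passed were 1.15% in naive, 36.4% in Th0, 40.7% in Th1, 16.4% in Th2, 8.21% in Th17 and 4.22% in Treg cells. In Th0 and Th1 cells the counts of 1 and 2 of 7 are no more than the background, and the median member differences were 0.06 and -0.10, beside -0.00 and -0.03 over all tested genes. For the mean over the 6 conditions 2 members passed, Cd27 higher and Icos lower, beside 46.4% of all tested genes. Tnfrsf18, at 0.13 (adjusted p = 0.057), was called higher under 14 of 45 alternatives, among them the replicate block (adjusted p = 0.045) and without replicate 1 of both KO Th0 and KO Th1 (0.16, adjusted p = 0.017).

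**Figure D3:**
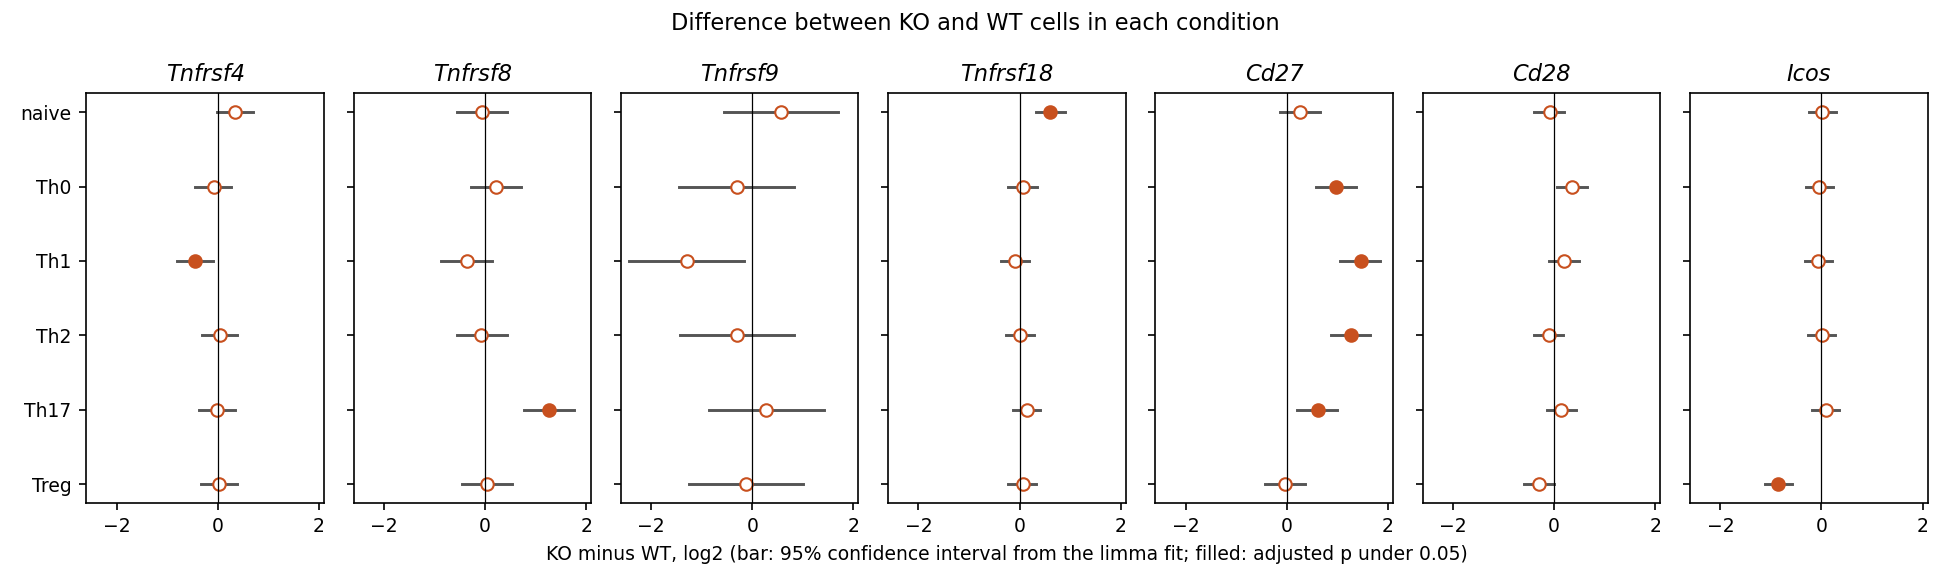
Difference between KO and WT cells (horizontal axis, log2) for each gene (panel) and condition (vertical axis), with the 95% confidence interval from the limma fit as a bar and filled points at an adjusted p under 0.05. Cd27 is filled in Th0, Th1, Th2 and Th17, Tnfrsf8 in Th17 at 1.27, Icos in Treg at -0.85, Tnfrsf18 in naive at 0.61 and Tnfrsf4 in Th1 at -0.45.

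Cd27 was higher in KO than in WT samples in the 4 stimulated conditions other than Treg, with no overlap in any of them. KO Th0 samples read 11.15, 11.07 and 11.09, KO Th1 samples 11.02, 10.81 and 10.59, KO Th2 samples 9.74, 9.32 and 8.81 and KO Th17 samples 9.16, 9.08 and 9.33, against the WT values above. The differences were 1.96-fold in Th0 (log2 0.97, SE 0.19, adjusted p = 0.00022), 2.75-fold in Th1 (log2 1.46, adjusted p = 1.6e-06), 2.39-fold in Th2 (log2 1.26, adjusted p = 2.4e-05) and 1.52-fold in Th17 cells (log2 0.61, adjusted p = 0.047). The first 3 held under every alternative, also without replicate 1 of both KO Th0 and KO Th1, whereas the Th17 call ended without WT Th17 replicate 1 or 3 or any KO Th17 sample (0.48 to 0.66, adjusted p from 0.074 to 0.24). Naive cells, at 10.63, 10.71 and 10.48 in KO samples, differed by 0.26 (95% interval -0.13 to 0.65), and Treg cells, at 10.56, 10.36 and 10.56, by -0.04 (95% interval -0.44 to 0.35), and neither passed. The KO effect on Cd27 was smaller in Treg than in Th0 cells by log2 -1.02 (SE 0.27, adjusted p = 0.0065), and the difference between Th0 and naive cells, 0.72 (SE 0.27), did not pass (adjusted p = 0.065). The latter was called with quantile normalization (0.74, adjusted p = 0.045) and in a fit to the groups compared (adjusted p = 0.014). With the term for sex described below it was called too (0.81, adjusted p = 0.038). Averaged over the 6 conditions Cd27 was 1.68-fold higher in KO cells (log2 0.75, SE 0.08, adjusted p = 1.5e-08). The array genes beside Cd27 on chromosome 6 also differed. Tapbpl was higher in KO Th0 (log2 0.65, adjusted p = 0.00034), Th1 (log2 0.45, adjusted p = 0.0088) and Th2 cells (log2 0.41, adjusted p = 0.033). 4930417O13Rik was higher in KO Th0 (log2 1.79, adjusted p = 7.9e-05) and Th1 cells (log2 1.38, adjusted p = 0.001). Neither passed in naive, Th17 or Treg cells, and a link with Cd27 was not tested.

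Proliferation genes were lower in KO than in WT samples in the conditions in which Cd27 was higher. The 5-gene list averaged 9.83 to 10.24 in WT and 9.08 to 9.40 in KO Th2 samples and 9.81 to 10.04 in WT and 9.07 to 9.43 in KO Th17 samples, beside the Th0 and Th1 ranges given above. In Treg cells, where Cd27 did not differ detectably, the list overlapped between genotypes, at 7.88 to 8.65 and 7.76 to 8.60, and the same held for naive cells, at 5.07 to 5.44 and 4.83 to 5.24. The part of this in the Cd27 result was not tested.

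Icos was lower in KO Treg cells, at 10.14, 10.25 and 10.41, than in any WT Treg sample. The fall was 1.81-fold (log2 -0.85, SE 0.13, adjusted p = 4.8e-05) and held under every alternative. In the other 5 conditions Icos differed by no more than 0.08 in either direction, and the KO effect in Treg was below that in Th0 cells by log2 -0.80 (SE 0.18, adjusted p = 0.0019). The mean over the 6 conditions, -0.14 (SE 0.05, adjusted p = 0.029), lost its call without WT Th0 replicate 2, KO naive replicate 1 or WT naive replicate 1 (adjusted p from 0.053 to 0.055), and without replicate 1 of both KO Th0 and KO Th1 (-0.13, adjusted p = 0.067). The mean of the Treg markers Foxp3 and Ikzf2 was also lower in these samples, at 9.74 to 10.31 in KO against 10.81 to 11.32 in WT Treg samples, and its part in the Icos result was not tested. Cd28 in Treg cells read 8.27, 9.14 and 8.86 in WT and 8.31, 8.29 and 8.75 in KO samples, an overlapping difference of -0.31 that did not pass (adjusted p = 0.29) but passed without WT Treg replicate 1 (-0.55, adjusted p = 0.0055). Cd28 was higher in all KO than in all WT Th0 samples by 0.35 (adjusted p = 0.053), which passed without KO Th0 replicate 2 (0.42, adjusted p = 0.040) and under 4 other alternatives. The difference of these 2 effects, Treg minus Th0, passed at log2 -0.66 (SE 0.20, adjusted p = 0.015), but not without WT Treg replicate 2 (-0.47, adjusted p = 0.076).

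Tnfrsf8 was higher in KO Th17 cells, at 10.67, 10.54 and 9.97, than in WT Th17 cells. The groups did not overlap, and the rise was 2.42-fold (log2 1.27, SE 0.24, adjusted p = 0.00074) and kept its call under every alternative. The other conditions showed no such difference, with values from -0.36 to 0.22, and the KO effect in Th17 exceeded that in Th0 cells by 1.05 (SE 0.34, adjusted p = 0.036). That difference of effects lost its call without any 1 of 8 samples: WT Th0 replicates 1 and 2, KO Th0 replicates 1 and 2, WT Th17 replicates 2 and 3 and KO Th17 replicates 1 and 2 (0.88 to 1.04, adjusted p from 0.061 to 0.11). Il17a, the Th17 marker on the array, was at 8.0 to 9.13 in WT and 7.46 to 8.32 in KO Th17 samples.

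Tnfrsf18 was higher in KO naive cells, at 9.63, 9.55 and 9.38, than in all WT naive samples, 1.53-fold (log2 0.61, SE 0.13, adjusted p = 0.013). The call ended without WT naive replicate 2 (0.58, adjusted p = 0.069), WT naive replicate 3 (0.61, adjusted p = 0.057) or KO naive replicate 1 (0.56, adjusted p = 0.095). After stimulation the Tnfrsf18 differences lay between -0.10 and 0.14, and the effect in Th0 was below that in naive cells by log2 -0.55 (SE 0.19, adjusted p = 0.043). That difference of effects lost its call without any 1 of 9 samples: WT naive replicates 1, 2 and 3, WT Th0 replicates 2 and 3, KO naive replicates 1 and 2 and KO Th0 replicates 1 and 2 (-0.48 to -0.57, adjusted p from 0.061 to 0.12). Tnfrsf9 also lay higher in all KO than in all WT naive samples, by 0.57 (95% interval -0.55 to 1.70), and did not pass. Naive samples differed in the sex of the mouse, as 1 WT and 2 KO samples had high Xist. High Xist was seen in 0 stimulated samples of either genotype, so sex was partly confounded with stimulation in comparisons with naive cells. With a term for sex, chosen after seeing the data, Tnfrsf18 differed by 0.56 in naive cells (adjusted p = 0.048). The difference between its Th0 and naive effects was then -0.50 and not called (adjusted p = 0.073). Members called between Th0 and naive cells within a genotype kept their calls with this term.

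In Th1 cells the TNF receptor family members other than Cd27 were uneven between KO samples. Tnfrsf9 read 7.43, 8.60 and 10.15 in KO and 9.51, 10.46 and 10.11 in WT Th1 samples, and Tnfrsf4 read 9.69, 10.09 and 10.70 in KO and 10.41, 10.81 and 10.61 in WT samples. KO Th1 replicate 3 lay among the WT samples for both genes, and replicate 1 was the lowest of the 6. Tnfrsf4 passed (1.37-fold lower, log2 -0.45, SE 0.17, adjusted p = 0.039) but not without KO Th1 replicate 1 (-0.21, adjusted p = 0.37), KO Th1 replicate 2 (-0.42, adjusted p = 0.097), WT Th1 replicate 2 (-0.35, adjusted p = 0.17) or WT Th1 replicate 3 (-0.45, adjusted p = 0.077). Tnfrsf9, with -1.30 (95% interval -2.43 to -0.17), missed the threshold (adjusted p = 0.060) and was called without KO Th1 replicate 3 (-2.01, adjusted p = 0.0044) or WT Th1 replicate 1 (-1.56, adjusted p = 0.049), with the replicate block (adjusted p = 0.030) and with samples centered on their median (-1.38, adjusted p = 0.043). Without KO Th1 replicate 3 the count of members called in Th1 rose from 2 to 4, with Tnfrsf8 also lower. KO Th1 replicate 1 had the lowest proliferation list of the Th1 samples, 7.53, with Mki67 at 9.0 against 10.94 and 10.93 in KO Th1 replicates 2 and 3, whose part in these values was not tested.

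The KO effect was also compared between conditions for all members, over tests that share the Th0 samples. From Th0 to Treg 3 of the 7 members differed in it, all downward (Cd27, Cd28 and Icos, above), beside 27.0% of all tested genes. From naive to Th0 1 member differed (18.5% of all tested genes) and from Th0 to Th17 1 member (15.6%). From Th0 to Th1 and from Th0 to Th2 the limma test called 0 members, beside 0.589% and 10.2% of all tested genes. At an unadjusted p under 0.05 these 2 comparisons held 0 and 1 members, the latter Cd28 (log2 -0.47, adjusted p = 0.14).

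The ligands of these receptors are made mainly by antigen-presenting cells, and some by activated T cells. Of 8 ligand genes, 6 were tested (Tnfsf18 and Cd70 stayed below the filter). In WT cells 5 of the 6 were higher in Th0 than in naive cells, where 53.6% of all tested genes passed. The largest rises were those of Cd80 (35.4-fold, log2 5.15, SE 0.62, adjusted p = 5.8e-08), Tnfsf4 (6.62-fold, log2 2.73, SE 0.50, adjusted p = 3.4e-05) and Tnfsf8 (3.63-fold, log2 1.86, SE 0.17, adjusted p = 3.2e-10). Cd80 and Tnfsf4 lay below the filter value in WT naive samples, so their folds are rough. Icosl, the ligand of ICOS, was called between genotypes in 3 conditions, higher in KO cells each time. It read 7.56, 6.34 and 6.64 in WT and 8.77, 8.67 and 8.41 in KO Treg samples, a 3.41-fold rise without overlap (log2 1.77, SE 0.23, adjusted p = 5.5e-06) in the cells where Icos fell. Icosl was also higher in KO naive cells (log2 1.15, adjusted p = 0.0048) and KO Th17 cells (log2 0.83, adjusted p = 0.022), and its KO effect was larger in Treg than in Th0 cells by 1.90 (SE 0.33, adjusted p = 0.00016). Tnfsf8, the ligand of CD30, was lower in KO Th17 samples, at 9.77, 9.89 and 9.99, than in WT Th17 samples, at 10.34, 10.60 and 10.67 (1.58-fold, log2 -0.66, SE 0.17, adjusted p = 0.012), the condition in which Tnfrsf8 rose. It was higher in KO Th1 (log2 0.50, adjusted p = 0.016) and KO Th2 cells (log2 0.57, adjusted p = 0.018). Cd86, a ligand of CD28, was 2.20-fold lower in KO Th17 cells (log2 -1.14, SE 0.26, adjusted p = 0.0054), and Tnfsf9, the ligand of CD137, was 1.78-fold lower in KO Th1 cells (log2 -0.83, SE 0.27, adjusted p = 0.014). For the mean over the 6 conditions Icosl was higher in KO cells (log2 0.63, adjusted p = 4.5e-06). Cd80 (log2 -0.66, adjusted p = 0.033) and Tnfsf4 (log2 -0.50, adjusted p = 0.045) were lower in that mean, where 46.4% of all tested genes passed.

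**Figure D4:**
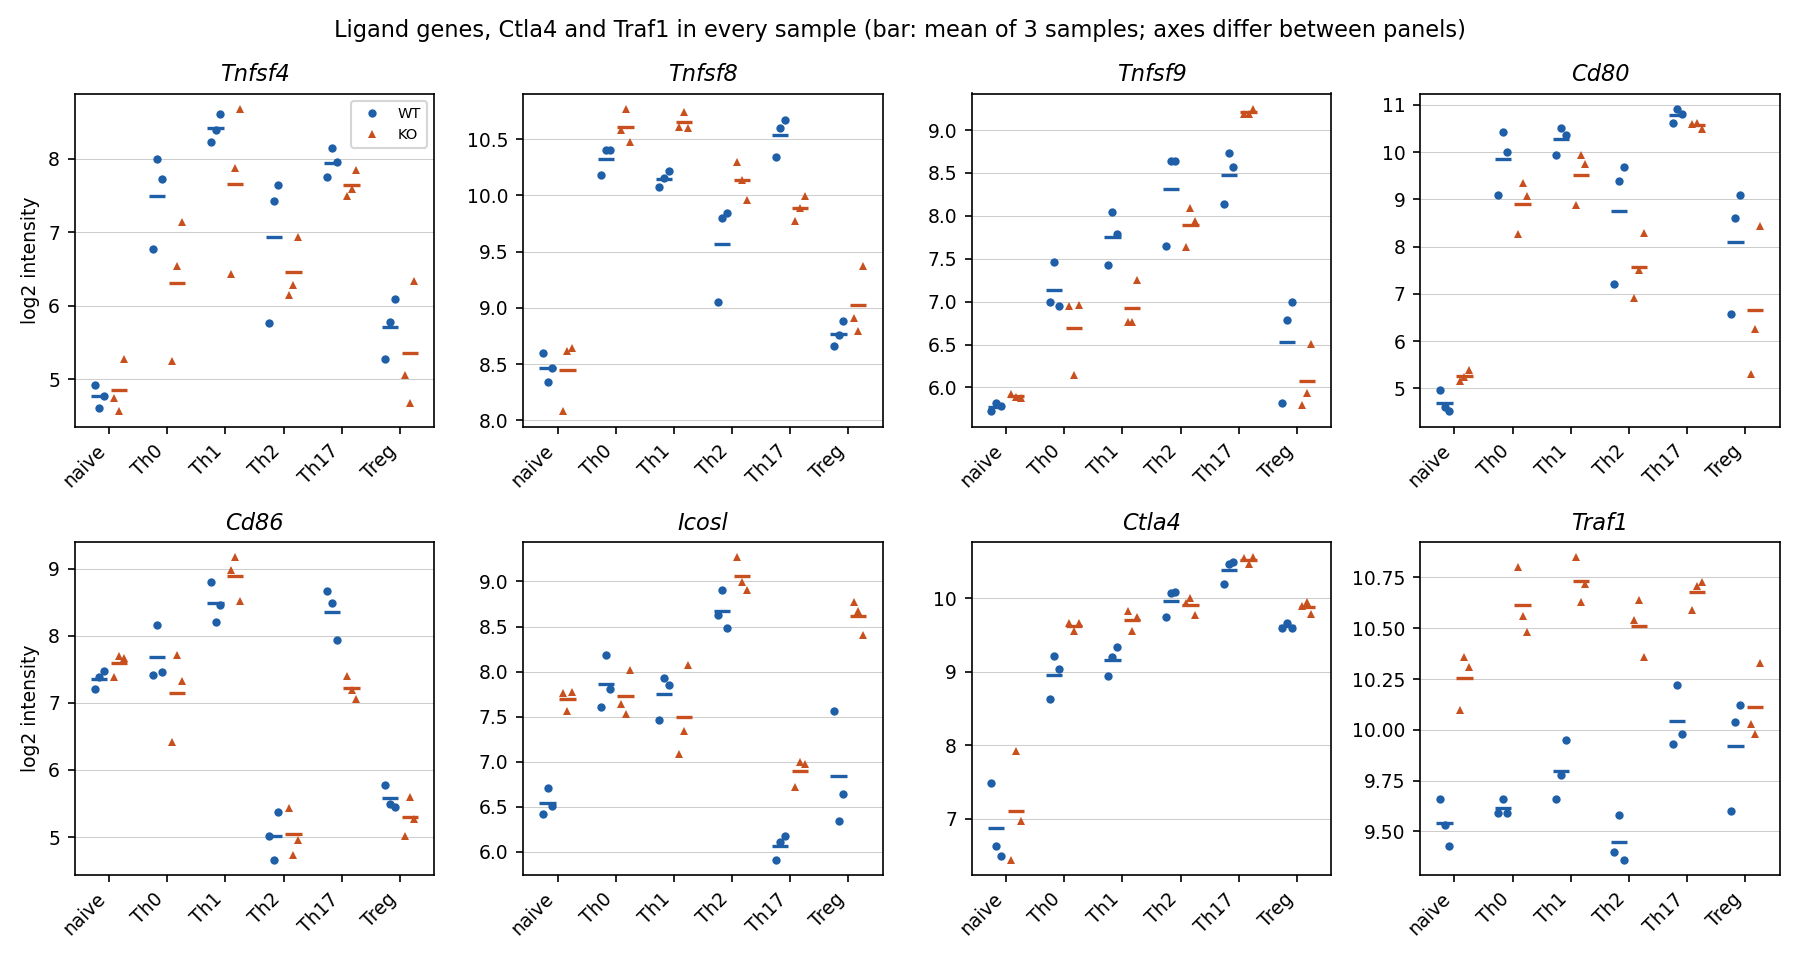
Log2 intensity (vertical axis, a separate scale in each panel) of 6 ligand genes, of Ctla4 and of Traf1 in the 6 conditions, with WT samples as blue circles, KO samples as orange triangles and a bar at the mean of 3 samples. Icosl is at 8.41 to 8.77 in KO Treg samples, above the WT ones at 6.34 to 7.56, and Traf1 is higher in the KO samples of all conditions but Treg.

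Downstream of the TNF receptor family, 22 of 27 TRAF and NF-kappaB genes were on the array and tested. Between KO and WT cells 9 were higher and 1 lower in Th0, 12 and 1 in Th1, 4 and 1 in Th2, 2 and 0 in Th17, 1 and 0 in Treg and 1 and 0 in naive cells, where 36.4%, 40.7%, 16.4%, 8.21%, 4.22% and 1.15% of all tested genes passed. The median list differences were 0.28 in Th0 and 0.31 in Th1 cells, beside -0.00 and -0.03 over all tested genes. Traf1, an adaptor of OX40, CD30 and CD137, read 10.80, 10.56 and 10.48 in KO and 9.59, 9.66 and 9.59 in WT Th0 samples, 2.0-fold higher (log2 1.0, SE 0.12, adjusted p = 8.6e-07). It was also higher in KO naive (0.72), Th1 (0.94), Th2 (1.07) and Th17 cells (0.64) and did not pass in Treg cells. Tnfaip3, which encodes the inhibitor A20, rose in KO Th0 (log2 0.94), Th1 (log2 1.02) and Th2 cells (log2 0.76), and Nfkbie, another inhibitor of NF-kappaB, in KO Th0 cells (log2 0.72). Between WT Th17 and Th0 cells 14 of the 22 were higher and 2 lower, where 39.1% of all tested genes passed, among them Nfkb2 (log2 1.83, adjusted p = 1.2e-09) and, lower, Traf5 (log2 -2.03, adjusted p = 1.7e-10).

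Of 22 genes of CD28 and ICOS signalling 18 were tested. In KO against WT cells 7 were higher and 1 lower in Th0, with a median of 0.17, and 7 and 1 in Th1. The counts were 1 and 1 in Th2, 0 and 2 in Th17, 0 and 1 in Treg and 0 and 0 in naive cells. The shares of all tested genes were 36.4%, 40.7%, 16.4%, 8.21%, 4.22% and 1.15% in that order, so the Th0 and Th1 counts are near the background. Among the inhibitory relatives of CD28, all 3 tested, Btla and Ctla4 were higher in KO Th0 cells and Btla in KO Th1 and KO Treg cells. In Th0, Th1 and Treg cells 36.4%, 40.7% and 4.22% of all tested genes passed. Pdcd1 did not pass between genotypes in any condition. Ctla4 lies between Cd28 and Icos on chromosome 1 in GRCm38.p6, and over the 12 group means it correlated with Icos at r = 0.66 and with Cd28 at r = -0.32, as a description. Of 16 other TNF receptor family genes 15 were tested. Between KO and WT cells 2 were higher and 1 lower in Th0, 3 and 2 in Th1 and 2 and 0 in Th2 cells. The counts were 3 and 1 in Th17, 0 and 1 in Treg and 1 and 0 in naive cells. In the same order 36.4%, 40.7%, 16.4%, 8.21%, 4.22% and 1.15% of all tested genes passed. Tnfrsf14, the receptor HVEM, was higher in KO Th0 (log2 0.64, adjusted p = 0.00071) and Th1 cells (log2 0.82, adjusted p = 3.9e-05), and Tnfrsf1b, a receptor for TNF that neighbours Tnfrsf8, in KO naive (log2 0.58, adjusted p = 0.022) and Th17 cells (log2 0.57, adjusted p = 0.0059). Tnfrsf21 was lower in KO Th0 (log2 -0.84, adjusted p = 0.00078), Tnfrsf10b in KO Th1 (log2 -0.77, adjusted p = 0.0091) and Tnfrsf13b in KO Th17 cells (log2 -0.58, adjusted p = 0.022). Tnfrsf22 was higher in KO Th2 (log2 1.22, adjusted p = 2.1e-05) and lower in KO Treg cells (log2 -0.65, adjusted p = 0.038). Of 10 further costimulatory receptors 9 were tested. Between KO and WT cells 3 were higher and 1 lower in Th0, 2 higher in Th1, 3 in Th2, 1 in Treg and 0 in naive and Th17 cells. The shares of all tested genes that passed were 36.4%, 40.7%, 16.4%, 4.22%, 1.15% and 8.21% in that order. Slamf6 was among those higher in KO Th0, Th1, Th2 and Treg cells.

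The genes whose 12 group means followed each member most closely were named by Pearson correlation, as a description over groups that share arrays. For Tnfrsf8 they were Kdelr3 (r = 0.985), Marcks (0.984) and Cyp11a1 (0.982), the last a steroid-synthesis enzyme. For Tnfrsf9 they were Ier3 (0.991), H2-Ab1 (0.989) and Lpin1 (0.983), and for Tnfrsf4 Cep170b (0.989), Dennd5a (0.984) and Glipr2 (0.984). Tnfrsf18 was followed by Plp2 (0.976), Fgfr1op2 (0.975) and its neighbour Tnfrsf4 (0.974). Cd27 was followed by Wfikkn1 (0.969), Mir1964 (0.959) and Ptcd1 (0.956), Icos by Jcad (0.960), Ecm1 (0.959) and Trim41 (0.957), and Cd28 by Gpr183 (0.933), Ly75 (0.919) and Synj2 (0.908). Cd28 was the member least like the others, with r between -0.27 and 0.21 to the other 6.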

How the data were processed

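Total RNA from 36 samples of mouse CD4 T cells was hybridised to Affymetrix arrays, per the labels' protocols. Per the submitters' processing notes, the authors summarised the arrays with RMA in the oligo package under R 3.1.0, and the deposited values are on a log2 scale, from 2.05 to 13.5, with sample medians of 5.18 to 5.35. The annotation version was not given in the sources used here, and 0 columns were left unused. Of 41345 probe sets, 23521 had 1 gene symbol in the platform annotation, 1814 several and 16010 none, and the highest-mean probe set stood for each of 22180 genes. RMA compresses low intensities, so folds near the filter are rough, and levels were not compared between probe sets. The number of arrays, 3 a group, limits the precision.

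Means of the 12 groups were fitted with limma 3.58.1 (R 4.3.3, package data.table, version 1.17.8) to 13082 genes with log2 values over 5.26, the median of all values, in at least 3 samples (24 residual degrees of freedom, 27.9 with the prior). From this fit 42 comparisons were taken, with Benjamini-Hochberg adjustment over all tested genes within each, and a gene was called at an adjusted p under 0.05. The script was tested on simulated data. The members and gene lists were chosen with earlier results of these data known. Named genes were the 7 members, the 3 genes most correlated with each over group means, up to 3 called genes per list and comparison by size, and the array genes beside each member. Samples with the same number deviated together (every r over 0.1) for WT Th1 and Th0, WT Th2 and Th0, KO Th1 and Th0, and KO Treg and Th0, with r from 0.11 to 0.70, so these comparisons are given with the replicate block where it changes a call. The alternatives were other filters, scalings, probe set summaries and priors, the replicate block, fits to the groups compared, and leaving out samples, and 2 were chosen after seeing the data (a term for sex by Xist, and the block in fits to those groups). Promoter windows came from RefSeq, GRCm38.p6. Tables and figures used Python 3.11.15, pandas 2.3.3 and matplotlib 3.10.9.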

Additional observations from a re-analysis of the deposited data

Results flagged for a closer look

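The KO effect on 5 members differed between conditions by a limma test of the difference itself. In Treg relative to Th0 cells the effect was lower for Cd27 (log2 -1.02, SE 0.27, adjusted p = 0.0065), for Cd28 (log2 -0.66, SE 0.20, adjusted p = 0.015) and for Icos (log2 -0.80, SE 0.18, adjusted p = 0.0019). For Tnfrsf8 it was higher in Th17 than in Th0 cells by 1.05 (SE 0.34, adjusted p = 0.036), a call lost under 10 of 21 alternatives. For Tnfrsf18 it was lower in Th0 than in naive cells (log2 -0.55, SE 0.19, adjusted p = 0.043), a call lost under 12 of 22 alternatives. The Cd28 call was lost under 2 of 21, and those of Cd27 and Icos held under all 21.

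Cd28 values lay in opposite directions in Th1 and Th2 cells. The 3 KO samples were higher than each of the 3 WT samples in Th1 and lower than each of them in Th2, and the KO effects differed by 0.31. Neither effect passed on its own (0.19 and -0.11), and the difference between them was not tested.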

How the results depend on the processing

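Of 58 called differences of members, 58 kept their direction under every alternative run, 39 also kept their call and 19 lost it under at least 1. Of 22 counts of members called, 15 stayed within 1.5 times their value under every alternative other than leaving out 1 sample. Between KO and WT Th0 cells the count was 2 in place of 1 with the stricter filter, the trended and robust prior, the replicate block or only the groups compared, as Cd28 joined Cd27. For naive cells it was 0 in a fit to the groups compared. For Th1 it was 1 in place of 2 with no filter, with only the groups compared and without replicate 1 of both KO Th0 and KO Th1, and for Th17 it was 1 with no filter or with samples centered on their median. For the effect in Th0 minus that in naive cells the count was 0 with no filter or without these replicates and 2 with quantile normalization or only the groups compared. For Th2 minus Th0 it was 1, and for Th17 minus Th0 0, with only the groups compared, and the latter was 0 with no filter too. Leaving out 1 sample at a time gave counts of 0 to 1 for KO against WT in naive, 1 to 2 in Th0, 1 to 4 in Th1, 1 to 2 in Th17, 1 to 2 in Treg and 1 to 4 for the mean. It gave 3 to 5 for WT Th0 against naive, 1 to 4 for WT Treg and for KO Treg against Th0, 1 to 3 for KO Th1 against Th0, and 0 to 1 for the effects in Th0 minus naive and Th17 minus Th0. The replicate block over all samples changed no count of members but that in Th0 by over 1.5 times. Where the cause of a moved count is not part of the alternative, it was not tested.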
